A study of Mus musculus with 4 samples.

Results

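Replication-dependent histone genes were taken as every mouse gene whose symbol begins with Hist1h, Hist2h, Hist3h or Hist4h once the Ensembl identifiers of the deposited files were matched to GENCODE M21. The annotation holds 70 such genes. Of these, 56 were among the 25261 genes listed in the files: 6 of class H1, 13 of H2A, 17 of H2B, 9 of H3 and 11 of H4. The other 14 were not analysed here. They were Hist1h2aa, Hist1h2ah, Hist1h2al, Hist1h2an, Hist1h2ap, Hist1h2ba, Hist1h3f, Hist1h4b, Hist1h4c, Hist2h2aa1, Hist2h2aa2, Hist2h2bb, Hist2h3b and Hist2h3c1. The samples were adult neural stem cells from C57BL/6 mice at 8 weeks of age, infected with a lentivirus that carried a short hairpin RNA against mouse Ogt (shOGT, 2 libraries) or a scrambled hairpin (ctrl, 2 libraries). Ogt encodes the enzyme that attaches single sugars to nuclear and cytoplasmic proteins, and the study's title concerns its part in adult neurogenesis. Neither the hairpin sequence, the brain region the cells came from, nor whether the libraries of a group were separate cultures is given in the sources used here. The p-values therefore cover no more than the differences between these libraries, and those may be technical.

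In replicating cells the core histones H2A, H2B, H3 and H4 package new DNA into nucleosomes, and the linker histone H1 binds where DNA enters and leaves the nucleosome. Their genes lie in clusters, have no or few introns, and are switched on in S phase. Unlike other messenger RNAs, most of their transcripts end just after a conserved stem-loop and carry no poly(A) tail; the stem-loop is bound by the protein that Slbp encodes. Some of these genes are also known to give longer, polyadenylated transcripts, above all in cells that have left the cycle. Whether the libraries were made from poly(A)-selected RNA is not given in the sources used here; the labels give total RNA. A library of poly(A)-selected RNA would hold few transcripts that end at the stem-loop.

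The stem-loop is shown for members that carry the results, because it is the feature that sets these messenger RNAs apart. In each line the capitals mark the 16 bases of stem and loop and the lower-case letters are 5 flanking bases on each side, read 5′ to 3′ from the GENCODE M21 transcript (GRCm38), with T for U.
Hist1h1c: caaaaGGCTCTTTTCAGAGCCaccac
Hist1h2ac: ccaaaGGCTCTTTTCAGAGCCcccac
Hist3h2a: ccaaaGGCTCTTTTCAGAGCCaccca
Hist1h2bg: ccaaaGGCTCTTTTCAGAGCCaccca
Hist3h2ba: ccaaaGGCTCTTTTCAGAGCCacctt
Hist1h3d: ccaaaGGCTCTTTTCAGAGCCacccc
Hist1h4i: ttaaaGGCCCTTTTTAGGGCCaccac
Hist1h4h: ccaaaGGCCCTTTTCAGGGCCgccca
These stem-loops lie at chr13:23739512-23739527 (plus strand) for Hist1h1c, chr13:23683477-23683492 (minus) for Hist1h2ac, chr11:58955172-58955187 (plus) for Hist3h2a and chr13:23571843-23571858 (plus) for Hist1h2bg. Those of Hist3h2ba, Hist1h3d, Hist1h4i and Hist1h4h lie at chr11:58949349-58949364 (plus), chr13:23576244-23576259 (plus), chr13:22040966-22040981 (minus) and chr13:23531458-23531473 (plus). The histone stem-loop was searched on the transcript's own strand, as 16 bases that open with GG and close with CC, hold 3 further fixed bases in and beside the loop, and have arms that pair. It was found in annotated transcripts of 44 of the 70 genes and of 37 of the 56 listed, against 0.204% of 141767 annotated transcripts. All 11 matches in H4 genes had a stem that differed from those of the other classes: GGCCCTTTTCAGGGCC in 7 genes, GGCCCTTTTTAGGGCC in 2 and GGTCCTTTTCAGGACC in 2. In H1, H2A, H2B and H3 genes the stem was the same in every match and the loop varied, with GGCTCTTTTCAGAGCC in 26 genes. Hist1h2bc, Hist2h2be, Hist1h3g and Hist1h4k, 4 of the better measured members, had no match, which says only that these letters are not in their annotated transcripts.

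The cell labels were compared with marker genes. All 10 neural stem cell markers were listed with a mean of at least 10, and their summed signal was 127300 and 132100 in shOGT and 136300 and 140000 in ctrl. Of 8 markers of the oligodendrocyte lineage 7 reached that level, with sums of 60570 and 59620 in shOGT and 58240 and 59040 in ctrl, as did all 6 astrocyte markers, at 15890 and 16700 in shOGT and 18880 and 18410 in ctrl. So did 5 of 6 neuron markers, with sums of 312.6 and 385.5 in shOGT and 328.1 and 271.8 in ctrl. All 3 listed ependymal markers reached it, at 775.1 and 724.0 in shOGT and 604.3 and 649.7 in ctrl. Of 5 neuroblast markers 2 did, with Prox1 highest at a mean of 1103. The same held for 1 of 3 listed endothelial and 2 of 4 listed fibroblast or mural markers. None of the 4 listed microglia markers did. The part of other cell types in the histone values was not tested, and in bulk samples fewer cells of a type and less RNA per cell cannot be told apart. Ogt had 3379 and 3516 in shOGT and 4112 and 4137 in ctrl (a limma adjusted p of 0.00876 with a log2 fold change of -0.26 ± 0.04 SE). That call was lost under several of the settings given in the closing part, while the fold change stayed between -0.29 and -0.23.

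Histone messenger RNA made up little of the libraries, and its level was very uneven between members. The summed deposited signal of all 56 genes was 3292 and 3323 in shOGT and 3733 and 3665 in ctrl, on average 0.0208% of all signal. The deposited signal is the authors' normalized value per gene, in which 1 read is worth between 0.943 and 1.06 units. The mean signal over the 4 libraries was at least 10 for 18 members, and the other 38 are called low here. Just above that line stood Hist2h3c2 and Hist1h4h, each at 10.4, and just below it Hist1h3c, at 9.58. For scale, 10 reads have a 95% Poisson interval of 4.80 to 18.4 reads, which covers counting error only. Hist1h1c alone held 54.7% of the summed histone signal. Per kilobase of exon, Hist1h1c was highest at 1228, followed by Hist1h2bc at 619, Hist1h4i at 268, Hist3h2ba at 140, Hist1h4k at 112 and Hist2h2be at 64.4. No member of class H3 came near these: the highest, Hist1h3g, had 25.5 per kilobase.

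**Figure D1:**
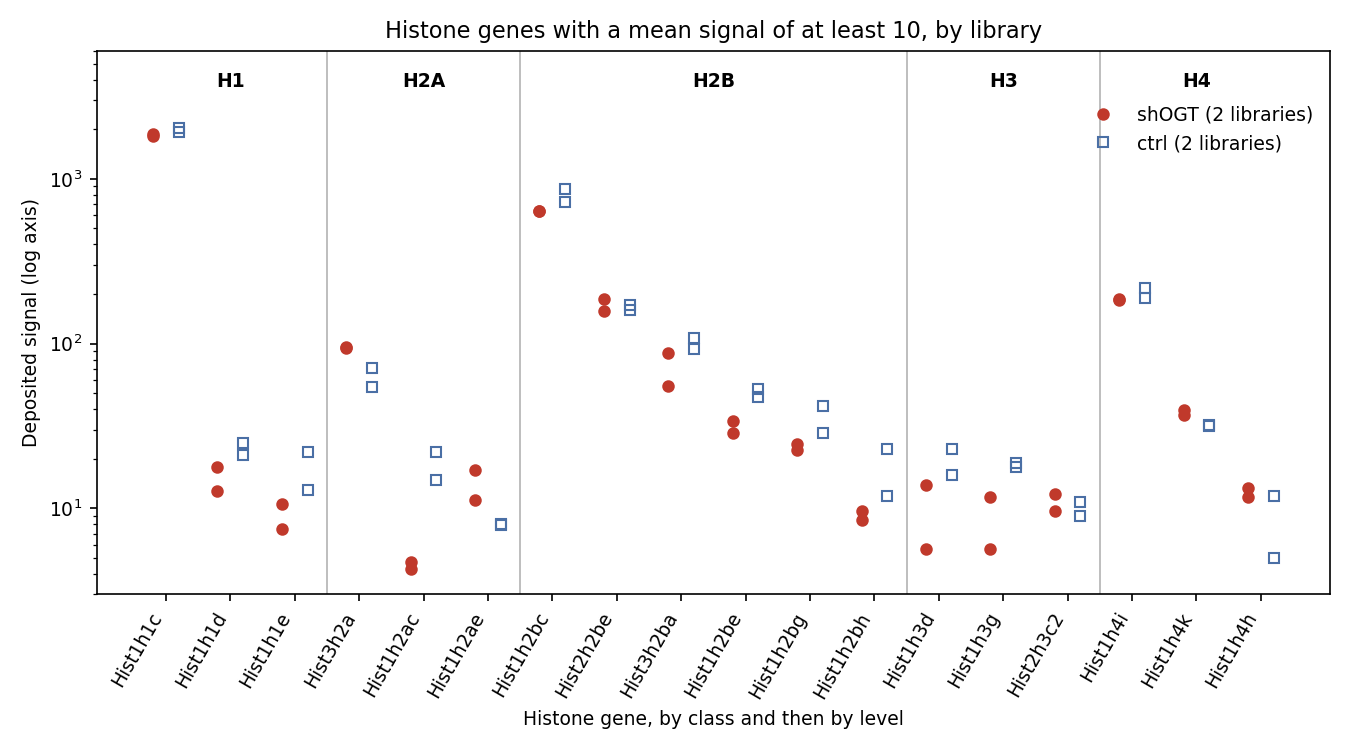
Deposited signal (log axis) of the 18 histone genes with a mean of at least 10, by class and then by level, with shOGT libraries as filled circles left of ctrl libraries as open squares. Hist1h1c lies between 1814 and 2041, and in 12 genes both circles lie below both squares.

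Single members were compared between shOGT and ctrl with limma on log2(signal + 1), fitted over the 21829 genes that reached 1 in 2 or more libraries; a gene is called where its Benjamini-Hochberg adjusted p is under 0.05. Of the 56 listed members 51 entered the fit. The other 5, Hist1h1t, Hist1h2af, Hist1h2ak, Hist1h2bl and Hist1h3h, had values between 0 and 2.828. limma called 0 of the 51, against 4.86% of all genes tested (1.96% higher and 2.90% lower), and 8 had an unadjusted p under 0.05, against 19.3% of all genes. The fold changes of 34 members lay below 0 and those of 17 above, where 49.8% of all genes lay below. Both shOGT values lay below both ctrl values in 19 of the 51, against 24.3% of all genes, and above them in 6, against 25.0%. In all, 49.3% of genes had groups that did not overlap. Part of these member counts follows from the filter. Hist1h2bf, Hist1h4f and Hist1h2ai reached 1 in ctrl libraries alone, and Hist3h2bb-ps and Hist1h2ab in shOGT libraries alone. The counts thus describe the members and support nothing further. The median log2 fold change of the 51 was -0.27, while that of all genes was 0.001. It was -0.13 without shOGT 2 and -0.47 without shOGT 1. Among the 18 members with a mean of at least 10, the groups did not overlap in 15, against 55.1% of all genes of that level: shOGT was lower in 12, against 28.2%, and higher in 3, against 26.8%. Their fold change was below 0 in 12 of 18, against 50.3%, and their median was -0.41, with a median standard error of 0.32. Part of this tally follows from the line itself: 5 of the 12 lower members (Hist1h1e, Hist1h2ac, Hist1h2bh, Hist1h3d and Hist1h3g) had a group mean of 10 or more in ctrl alone, and Hist1h2ae, Hist2h3c2 and Hist1h4h in shOGT alone, so that the counts describe these members and support nothing further. When limma was fitted to the 15308 genes of that level alone, 2 of the 18, Hist1h2ac and Hist1h2bc, were called lower, with adjusted p of 0.0193 and 0.0133, against 13.0% of genes called in either direction and 7.50% called lower. Hist1h2ac, with a mean of 4.48 in shOGT and 18.4 in ctrl, enters that fit through its ctrl values, so its call there is not independent of the difference.

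**Figure D2:**
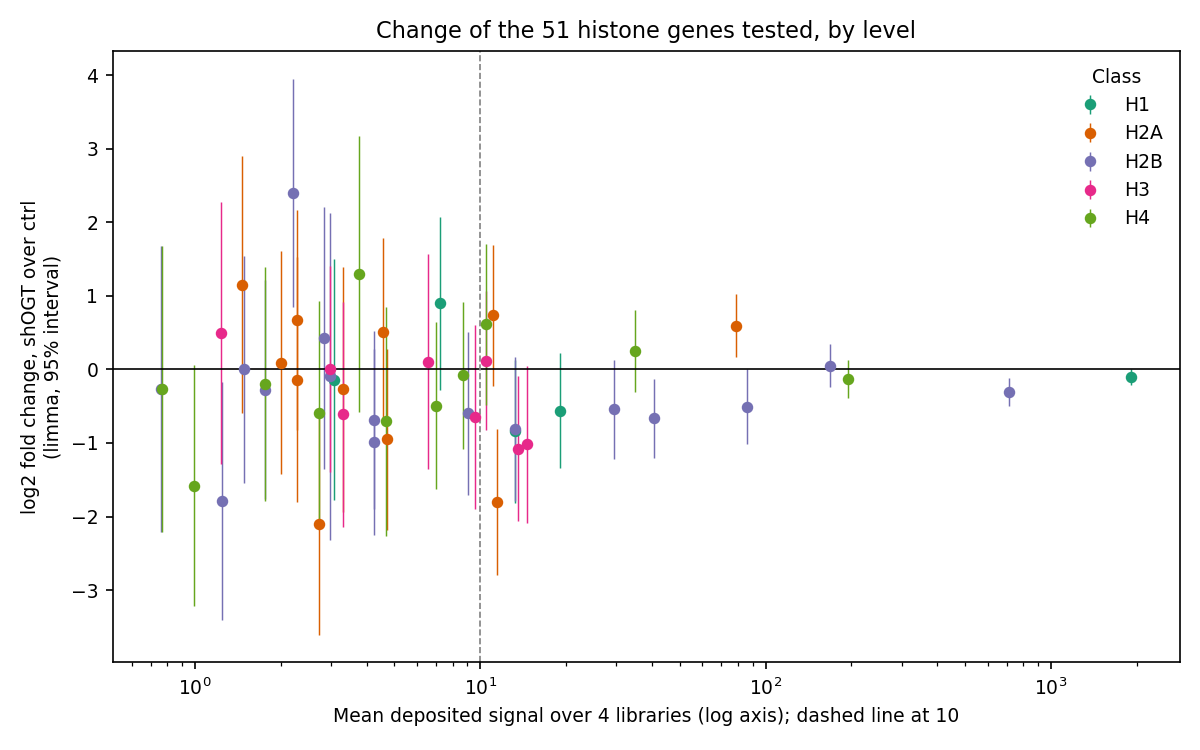
log2 fold change of shOGT over ctrl for the 51 tested histone genes against their mean signal (log axis), with 95% limma intervals and colours for the classes; the dashed line marks a mean of 10. Intervals narrow to the right, where Hist1h1c sits at -0.10, and widen left of the line, where values run from -2.10 to 2.40.

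The linker histone genes with a mean of at least 10 were all lower in both shOGT libraries, against 28.2% of all genes of that level, none of them past the test. Hist1h1e had a group mean of 10 or more in ctrl alone, so its direction is not independent of that level. Hist1h1c, on chromosome 13, encodes a somatic linker histone found in most cells. It had 1814 and 1880 in shOGT and 1925 and 2041 in ctrl, with an adjusted p of 0.303 by limma and a fold change of -0.10 ± 0.05 (log2, SE). The groups did not overlap, but their nearest values were 1880 and 1925. Hist1h1d, another somatic linker histone gene, had 12.8 and 17.9 in shOGT and 20.9 and 24.8 in ctrl (-0.56 ± 0.35). Hist1h1e had 10.6 and 7.54 in shOGT and 21.9 and 12.9 in ctrl (-0.84 ± 0.43), again with no overlap. Its exons overlap those of Hist1h2be on the same strand, so that reads there may have been counted for either gene. Of the 3 low members, Hist1h1b went the other way, with 9.57 and 9.43 in shOGT and 6.98 and 2.98 in ctrl (0.90 ± 0.52, adjusted p = 0.397 by limma), Hist1h1a overlapped between the groups, and Hist1h1t, a linker histone gene of the testis, was at 0 in both shOGT libraries and had a single read in each ctrl library.

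Class H2A held members on either side. Hist1h2ac, a core histone gene on chromosome 13, had 4.25 and 4.71 in shOGT and 21.9 and 14.9 in ctrl. Both shOGT values were far below both ctrl values. The log2 fold change was -1.80 ± 0.44, the most negative among members with a mean of at least 10, with a limma unadjusted p of 0.00257 and an adjusted p of 0.0511. This lies next to the threshold, and the gene passed it under several alternatives given in the closing part and missed it under others. Its limma adjusted p was 0.154 without the filter on low values, 0.128 after quantile normalization and 0.26 without the variance trend. The gene reaches a mean of 10 through ctrl alone, so its call among genes of that level is not independent of the difference. Exons of the predicted genes Gm24991 and Gm44350 overlap those of Hist1h2ac, the first on the same strand. In the opposite direction, Hist3h2a, the H2A member with the highest level per kilobase, had 93.6 and 95.2 in shOGT and 70.8 and 54.6 in ctrl (0.59 ± 0.19, adjusted p = 0.117), with both shOGT values above both ctrl values. Hist3h2a shares exon sequence with Trim17 on the same strand. Hist1h2ae was also higher in both shOGT libraries, at 17.0 and 11.3, against 7.98 and 7.94 in ctrl (0.73 ± 0.43, adjusted p = 0.393), and it reaches a mean of 10 through shOGT alone. Among the 10 low H2A members, Hist1h2ai had 0 and 0.943 in shOGT and 4.99 and 4.96 in ctrl, at 5 reads or fewer in every library.

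Of the 6 H2B members with a mean of at least 10, 5 were lower in both shOGT libraries, against 28.2% of all genes of that level. Hist1h2bh had a group mean of 10 or more in ctrl alone, so its direction is not independent of that level. Hist1h2bc, the core histone gene with the highest level per kilobase, had 634.7 and 639.1 in shOGT and 863.6 and 725.1 in ctrl. Its log2 fold change was -0.31 ± 0.08 (limma unadjusted p = 0.00444, adjusted p = 0.0683). The shOGT libraries lay close together, and the nearest ctrl value was 725.1. Hist1h2be had 28.7 and 33.9 in shOGT and 52.9 and 47.6 in ctrl (-0.67 ± 0.24, adjusted p = 0.165), well apart. Hist3h2ba had 88.3 and 55.6 in shOGT and 108.7 and 92.3 in ctrl (-0.51 ± 0.23, adjusted p = 0.262); shOGT 1 lay close to ctrl 2. Hist1h2bg, at 24.5 and 22.6 in shOGT against 41.9 and 28.8 in ctrl, and Hist1h2bh, at 9.57 and 8.48 in shOGT against 22.9 and 11.9 in ctrl, had adjusted p of 0.365 and 0.355 by limma. Hist2h2be, from the cluster on chromosome 3, was the exception, at 157.4 and 186.6 in shOGT and 159.6 and 171.6 in ctrl (0.05 ± 0.13), where the shOGT values enclosed the ctrl values. Its sign turned to -0.07 without shOGT 2. Among the 11 low H2B members, a few reads separated the groups in some cases: Hist1h2bf was at 0 in both shOGT libraries and at 1.99 and 2.98 in ctrl, and the pseudogene Hist3h2bb-ps had 3.19 and 5.66 in shOGT and 0 in both ctrl libraries.

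Summed per kilobase, class H3 was the lowest of the core classes, at 91.3 over 9 listed genes, against 111 over 13 for H2A. Hist1h3d had 13.8 and 5.66 in shOGT and 22.9 and 15.9 in ctrl (-1.02 ± 0.47, limma adjusted p = 0.280), and Hist1h3g had 11.7 and 5.66 in shOGT and 19.0 and 17.9 in ctrl (-1.08 ± 0.44, adjusted p = 0.218). In each gene both shOGT values were lower, and shOGT 2 was the lowest of the 4 libraries. Each had a group mean of 10 or more in ctrl alone, so its direction is not independent of that level. Hist2h3c2 had 9.57 and 12.3 in shOGT and 11.0 and 8.93 in ctrl (0.12 ± 0.42), with overlap. All 6 low H3 members overlapped between the groups.

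Class H4 held the member with the third-highest level per kilobase, Hist1h4i, at 185.0 and 186.6 in shOGT and 189.5 and 217.2 in ctrl (-0.13 ± 0.12, limma adjusted p = 0.613). The groups did not overlap, by a margin of a few reads. Hist1h4k had 39.3 and 36.8 in shOGT and 31.9 and 31.7 in ctrl, with no overlap (0.25 ± 0.25, adjusted p = 0.641). Hist1h4h had 11.7 and 13.2 in shOGT and 4.99 and 11.9 in ctrl (0.61 ± 0.49), where ctrl 1 stood apart from the other libraries. Of 8 low H4 members, 7 had a fold change below 0, with groups that overlapped in 6.

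With only 2 libraries a group, a single library moved many of these fold changes by more than 1.5 times. Leaving out shOGT 2 brought Hist3h2ba to -0.18, Hist1h3d to -0.44 and Hist1h3g to -0.61, and leaving out shOGT 1 brought the same genes to -0.84, -1.59 and -1.54 and moved Hist1h1d to -0.33 and Hist1h2ae to 0.46. Without ctrl 1 the values were -0.19 for Hist1h2bc, -0.28 for Hist1h2bg, -0.37 for Hist1h2bh, -0.48 for Hist1h1e, -0.22 for Hist1h4i and 0.06 for Hist1h4h. Without ctrl 2 they were -0.06 for Hist1h1c, -0.81 for Hist1h2bg, -1.26 for Hist1h2bh, -0.03 for Hist1h4i and 1.17 for Hist1h4h. Hist1h2ac ran from -2.07 to -1.54, Hist1h2be from -0.78 to -0.55, Hist3h2a from 0.41 to 0.78 and Hist1h4k from 0.20 to 0.30. None of these 16 members changed sign when a library was left out, while the other 2 of the 18, Hist2h2be and Hist2h3c2, did. Where the groups do not overlap, leaving out 1 library cannot change the sign. Among the 16, the kept sign is thus informative only for Hist1h4h, whose groups overlap.

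Summed by class, the signal followed the dominant member. The H1 sum was 1852 and 1915 in shOGT and 1980 and 2085 in ctrl, a log2 ratio of -0.11 that was -0.07 without ctrl 2, and Hist1h1c held 97.8% of it; without Hist1h1c the ratio was -0.40. The H2A sum was 140.3 and 132.9 in shOGT and 127.7 and 103.2 in ctrl, a ratio of 0.25, which turned to -0.32 without Hist3h2a, the holder of 62.3%. It was 0.40 without ctrl 1 and 0.10 without ctrl 2. The H2B sum was 976.0 and 969.1 in shOGT and 1286 and 1113 in ctrl, a ratio of -0.30, with 65.9% from Hist1h2bc; without that gene it was -0.27, and without ctrl 1 it was -0.19. In class H3, with no such member, the sum was 63.8 and 38.6 in shOGT and 71.8 and 76.4 in ctrl, a ratio of -0.58. It was -0.94 without shOGT 1 and -0.22 without shOGT 2, so that its size rests on which shOGT library is used. The H4 sum was 259.4 and 266.8 in shOGT and 267.3 and 287.7 in ctrl, a ratio of -0.08, which was 0.06 without Hist1h4i, -0.13 without ctrl 1 and -0.02 without ctrl 2. H1, H2B, H3 and H4 sums were lower in both shOGT libraries than in both ctrl libraries, and the H2A sum was higher; in H4 the nearest values were 266.8 in shOGT and 267.3 in ctrl. These sums carry no test, since 2 against 2 libraries cannot go below 0.333 in an exact permutation test.

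**Figure D3:**
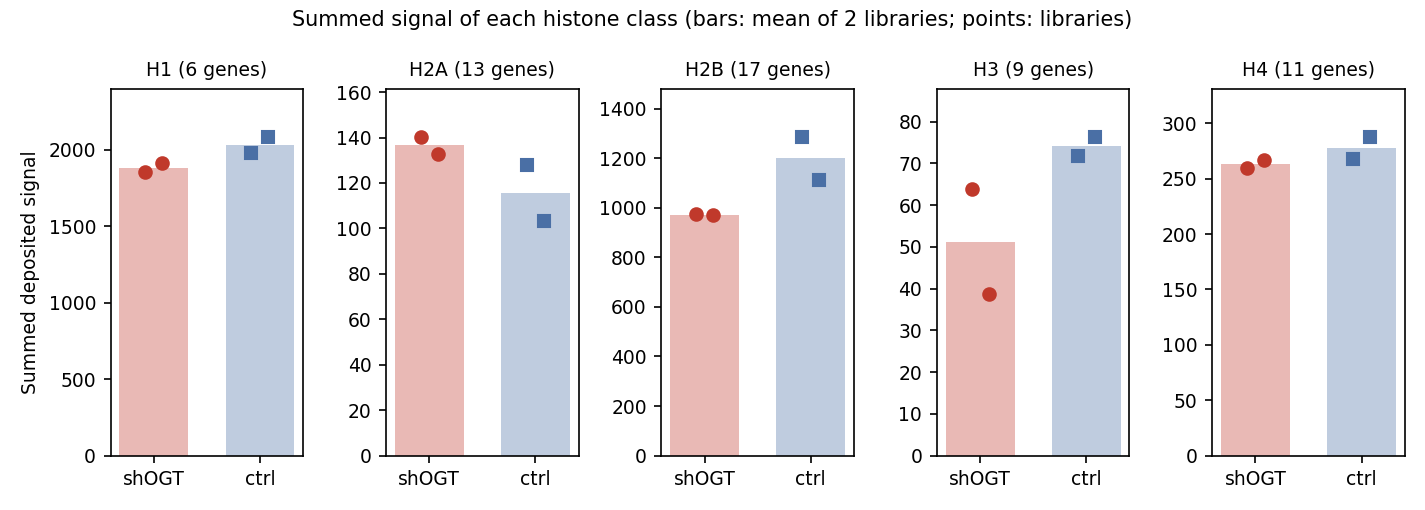
Summed deposited signal of each histone class, with bars for the mean of 2 libraries, points for the libraries and shOGT left of ctrl; each panel has its own axis from 0. The H2A points are higher in shOGT, at 140.3 and 132.9, than in ctrl, at 127.7 and 103.2, and those of the other classes are lower in shOGT.

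A feature that was not used to choose the members is how far their annotated transcripts run past the stem-loop. In 19 listed genes the annotation goes on for at least 100 bases after it, and 13 of these had a mean of at least 10; in 18 it stops within 100 bases, and 1 of these, Hist1h4h, did; the other 4 members of that level have no stem-loop match. The median level, not divided by exon length, was 13.2 in the longer kind and 2.90 in the shorter. Transcripts of Hist1h1c run 840 bases past the stem-loop, those of Hist3h2a 1643 and those of Hist1h2ac 2010, against 46 for Hist1h4h. Per kilobase of exon the levels were 1228 for Hist1h1c, 36.6 for Hist3h2a and 4.61 for Hist1h2ac, against 22.2 for Hist1h4h. The sequence AATAAA, the usual signal for a poly(A) tail, was found in the last 50 bases of an annotated transcript for 14 of the 56 members, against 26.6% of all annotated transcripts. Among members with a mean of at least 10 these were Hist1h1c, Hist1h2ae, Hist3h2a, Hist1h2be, Hist2h2be and Hist3h2ba. Longer gene models also offer more bases on which a read can be counted. The part of model length in the levels was not tested.

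Many members have near-identical copies. For each gene the share of its 50-base stretches that also occur in another gene was counted. The median was 45.0% in the 56 listed members and 73.7% in the 14 others. By class the median was 1.13% in H1, 73.2% in H2A, 44.1% in H2B, 62.0% in H3 and 39.5% in H4. Of the 32 listed members that share under 50%, 15 had a mean of at least 10; of the 24 that share more, 3 did: Hist1h4k, Hist2h3c2 and Hist1h3g, with 71.5%, 63.5% and 54.1%. Values of these 3 members are uncertain, since reads that match several copies may have been split between them or dropped. The same limit holds to a lesser degree for others of that level. Hist1h2bg shared 49.7%, Hist1h2ae 43.2%, Hist1h1e 32.0%, Hist3h2a 31.5% and Hist1h2bc 30.1%, while Hist2h2be shared 0%. How such reads were counted is not given in the sources used here.

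**Figure D4:**
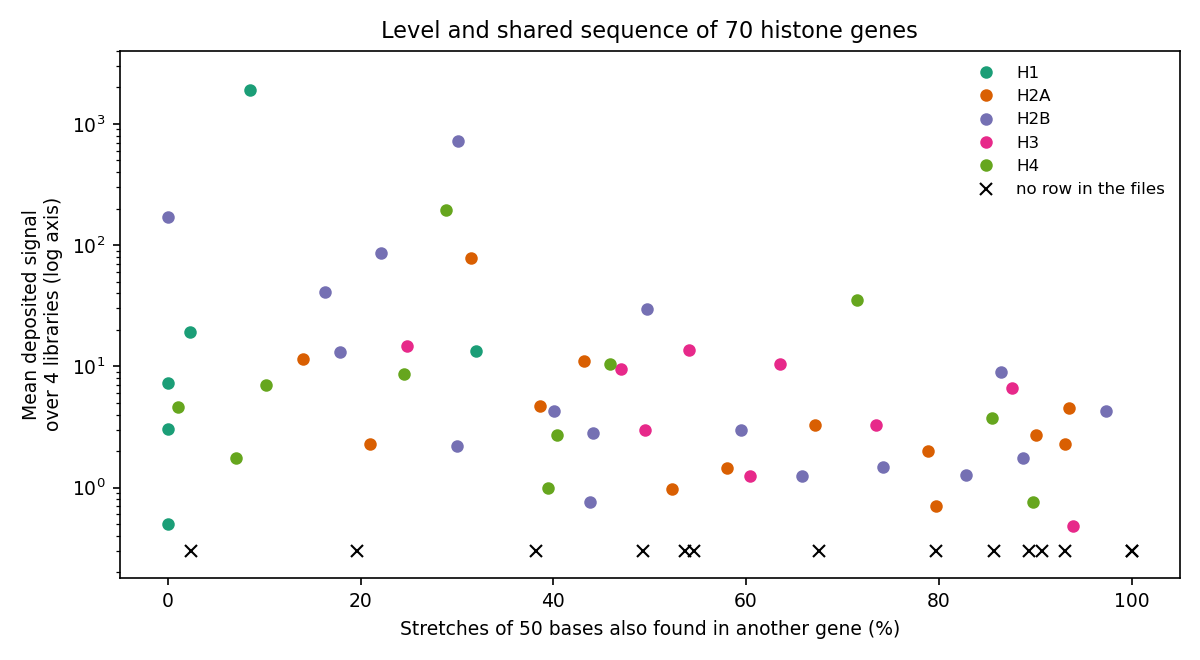
Mean deposited signal over 4 libraries (log axis) against the share of 50-base stretches that another gene also holds, for 70 histone genes coloured by class; crosses at the bottom are the 14 genes without a row. Points above 10 crowd on the left, with 15 of 18 under 50%.

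Many H2A and H2B genes stand head to head and share a start region, so that their values can be set side by side. In the annotation 14 pairs have starts within 500 bases on opposite strands, all of them an H2A gene with an H2B gene, and both partners were listed in 10. Hist1h2ac and Hist1h2bc, with starts 251 bases apart, had levels of 4.61 and 619 per kilobase of exon over the 4 libraries and log2 fold changes of -1.80 and -0.31. The H2B partner was far the higher in level. Hist1h2ae and Hist1h2bg, 176 bases apart, had 15.7 and 47.6 per kilobase and fold changes of opposite sign, 0.73 and -0.54, as given above. For Hist2h2ac, a low member, and Hist2h2be, 239 bases apart, the levels were 9.05 and 64.4 per kilobase and the fold changes -0.95 and 0.05. The difference between partners was not tested.

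Promoters were read from RefSeq (GRCm38.p6), from 250 bases before the start to 50 after it, and 62 of the 70 genes were matched. The octamer ATTTGCAT, searched on both strands, is known as a binding site for the factor that Pou2f1 encodes and is typical of H2B promoters. It was found in 7 of 18 H2A and 6 of 16 H2B promoters and in none of class H1, H3 or H4, against 1.74% of 32851 promoters. It is shown for the matched members with a mean of at least 10 that hold it, with the octamer in capitals, on the strand of the named gene.
Hist1h2ac: gtgggattATGCAAATgaagtttc
Hist1h2ae: gaggttctATGCAAATaagggact
Hist1h2bg: agtcccttATTTGCATagaacctc
Hist3h2a: taaggcatATGCAAATtaggaagg
The windows lie at chr13:23684074-23684097 (minus strand) for Hist1h2ac and chr11:58954558-58954581 (plus) for Hist3h2a. Those of Hist1h2ae (minus) and Hist1h2bg (plus) are the same 24 bases, chr13:23571333-23571356, read on opposite strands. The genes with this octamer thus include members that were lower in shOGT, Hist1h2ac and Hist1h2bg, and members that were higher, Hist1h2ae and Hist3h2a. Hist1h2bc and Hist2h2be had no matched promoter, so they were not searched and are not in the H2B count. The octamers found for their head-to-head partners, Hist1h2ac and Hist2h2ac, lie between the annotated starts of each pair. CCAAT, on either strand, was found in every matched promoter of class H1, H2A, H2B and H3 and in 3 of 12 of class H4, against 37.4% of all promoters. TATAAA, also on either strand, was found in 66.7% of H1, 61.1% of H2A, 50% of H2B, 40% of H3 and 66.7% of H4 promoters, against 13.6% of all. A match is a description of these letters and not a measured binding site.

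Replacement histone variants, which are mostly made from ordinary polyadenylated messenger RNAs, held more signal per kilobase than the classes they stand in for. Whether the RNA was poly(A)-selected is not given, and reads of near-identical histone copies may have been dropped. The part of either in these levels was not tested, so they describe the libraries and not the amounts in the cells. Per kilobase the H3 class summed to 91.3, against 4761 for H3f3a and H3f3b, and the H2A class to 111, against 8546 for H2afx, H2afz, H2afv and H2afj. Class H1 came closer, at 1252 against 2080 for H1f0 and H1fx. Of the 11 variant genes tested, limma called 6 lower in shOGT and 0 higher, against 2.90% and 1.96% of all genes tested, with 8 at an unadjusted p under 0.05, against 19.3%, and a median log2 fold change of -0.24. H1f0, the linker histone of slowly dividing and differentiated cells, fell to 3275 and 3260 in shOGT, against 4051 and 3981 in ctrl (-0.30 ± 0.04, adjusted p = 0.00388). H2afz, an H2A variant found at promoters, fell to 6696 and 6330 in shOGT, against 7895 and 7979 in ctrl (-0.29 ± 0.04, adjusted p = 0.00467). The macroH2A genes H2afy and H2afy2 fell by 0.24 and 0.27 on the log2 scale, H3f3a by 0.18, and Cenpa, the centromeric H3, by 0.25, with adjusted p between 0.0178 and 0.0394 by limma. H1fx, at -0.31, missed the threshold with an adjusted p of 0.0575. H3f3b, which encodes the same H3.3 protein as H3f3a, had 11230 and 11190 in shOGT and 10730 and 10840 in ctrl (0.06 ± 0.03, adjusted p = 0.374). The standard errors of the variant genes lay between 0.03 and 0.08 on the log2 scale, while the median over the tested replication-dependent members was 0.56 and the lowest, of Hist1h1c, 0.05.

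In the lists of genes that make and destroy histone messenger RNA no gene passed the test. Of all genes tested, limma called 4.86%, and 19.3% had an unadjusted p under 0.05. In lists of 18 and 11 genes, 0 called lies near that share and is not a result about these genes. In the list for histone gene transcription and 3′ end processing limma called 0 of 18 tested genes, with 1 at an unadjusted p under 0.05 and a median of 0.03. That gene was Cpsf3, the nuclease that cuts histone pre-mRNA, at 1481 and 1526 in shOGT and 1416 and 1357 in ctrl (0.12 ± 0.05, adjusted p = 0.250). Slbp, chosen here after its values were seen because its protein binds the stem-loop, had 1127 and 985 in shOGT and 1019 and 1101 in ctrl, with overlap. In the list for histone mRNA decay limma also called 0 of 11, with 1 at an unadjusted p under 0.05 and a median of 0.06. This was Prkdc, a DNA damage kinase, at 898 and 869 in shOGT and 764 and 756 in ctrl (0.22 ± 0.06, adjusted p = 0.0695).

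Histone chaperones and cell cycle genes are the groups that act beside histone supply. The shares of all tested genes to set beside the counts that follow are 2.90% called lower, 1.96% called higher and 19.3% at an unadjusted p under 0.05. Of 24 chaperone and deposition genes, 3 were called lower and 0 higher, with 9 at an unadjusted p under 0.05 and a median of -0.05. These were Asf1b, an H3 and H4 chaperone of dividing cells (380.6 and 370.5 in shOGT, 507.6 and 468.2 in ctrl; -0.38 ± 0.08, limma adjusted p = 0.0295), Hat1, which acetylates new H4 (-0.22), and Rbbp7, its partner (-0.18). Nasp, a chaperone of H1 and H3, was at -0.17 and Ipo4, an importin for H3 and H4, at 0.26, with adjusted p of 0.0535 and 0.0565 by limma. Of 30 genes of S phase entry and DNA replication, 5 were called lower and 0 higher, with 12 at an unadjusted p under 0.05 and a median of -0.09: Gmnn, an inhibitor of origin licensing (-0.49), Fen1, a flap nuclease (-0.52), Pola1, of the primase complex (-0.32), Ccna2, an S phase cyclin (-0.21), and Pcna, the polymerase clamp (-0.16). Among 16 mitotic genes 6 were called lower, Ccnb1, Birc5, Kif11, Aurkb, Top2a and Cdk1, with log2 fold changes between -0.36 and -0.16; 14 had an unadjusted p under 0.05, and the list median was -0.19. The share of cells in S phase was not measured, and the part of the cell cycle in the histone values was not tested. The calls in the lists of related genes rest on 2 libraries a group, and the closing part gives how calls over all genes depend on the settings. Noncoding RNAs without a poly(A) tail summed to 1456 and 1517 in shOGT and 1486 and 1352 in ctrl, over 374 listed genes, and 0 of 250 tested were called by limma, with 16 at an unadjusted p under 0.05.

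**Figure D5:**
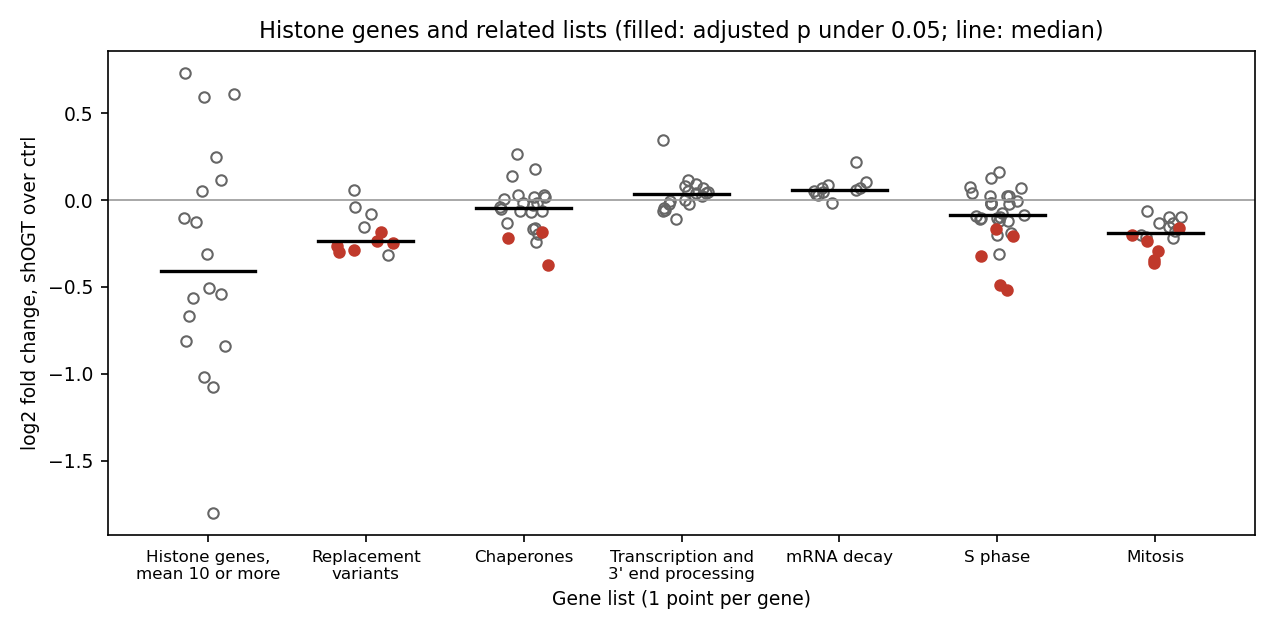
log2 fold change of shOGT over ctrl for the 18 histone genes with a mean of at least 10 and for 6 lists of related genes, 1 point per gene, filled where the limma adjusted p is under 0.05, with a line at the median. The histone genes spread widest, from -1.80 to 0.73, with none filled, and the 16 mitotic genes all lie below 0.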

How the data were processed

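RNA sequencing libraries of 2 shOGT and 2 ctrl samples were used, with groups from the labels' treatment field. The deposited files hold the authors' normalized signal per gene; within each library 100% of the values are whole multiples of 1 step (tolerance 0.01 of a step), which implies 15697508 and 17753976 reads in shOGT and 16909316 and 17090949 in ctrl. The build is mm10, per the submitters' processing notes; the aligner, counting, strand use and normalization are not given in these sources. Symbols and transcripts came from GENCODE M21 (25242 identifiers matched, 19 did not).

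limma 3.58.1 (R 4.3.3) with a variance trend was fitted to log2(signal + 1) without a replicate block, which understates the change of low genes; self-tests ran on simulated data. Replicates differed by more than sampling noise (chi-square per gene 3.33 in shOGT and 2.02 in ctrl, where noise gives 1) and were kept as separate samples. Named were members with a mean of at least 10, low members by counts, and in each list the called genes and up to 4 with the smallest p. The members and lists were chosen with earlier results of these data known. Alternatives are given in the closing part.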

Additional observations from a re-analysis of the deposited data

How the results depend on the processing

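The calls depend on the settings. limma called 1060 genes in all, 0 without the filter on low values (4302 at an unadjusted p under 0.05), 1991 at a mean of at least 10, 0 after quantile normalization (3998), 0 without the variance trend (2763), 2302 with the replicate block, and 0 to 0 when each library was left out (2484 to 3389). Where the filter was applied again to the 3 libraries, an alternative chosen after seeing the data, the range was 0 to 1220. The cause was not tested. Rescaled to equal totals, 50.3% of calls were higher in shOGT, against 40.3% as deposited. Of the histone members 0 were called; 1 was with a pseudocount of 5 or rescaled totals (Hist1h2ac), 2 at a mean of at least 10 (Hist1h2bc, and Hist1h2ac, which reaches that mean through ctrl alone), 4 with the replicate block (Hist1h2ac, Hist1h2bc, Hist3h2a and Hist3h2bb-ps), and 0 to 2 with a library left out. Hist3h2bb-ps, at 0 in both ctrl libraries, passed the filter through its shOGT values alone. Same-numbered libraries did not deviate together (r = 0.0073 over genes). The labels do not say whether the numbers pair the samples, and this correlation cannot settle it. The median of the members stayed between -0.47 and -0.10 under every setting run. The log2 ratio of the class sums moved to -0.40 (H1), -0.32 (H2A) and 0.06 (H4) without the highest member. Over members that share no stretch of 50 bases it was 0.56 for H1, which leaves the low Hist1h1a, Hist1h1b and Hist1h1t, and 0.05 for H2B, which leaves Hist2h2be alone. With a library left out the log2 fold change of Hist2h2be ran from -0.07 to 0.17 (-0.07 without shOGT 2 and -0.0019 without ctrl 1) and that of Hist2h3c2 from -0.04 to 0.28 (-0.04 without shOGT 2 and -0.02 without ctrl 2). The call of Ogt was lost, at an adjusted p of 0.0936 to 0.349, without the filter, after quantile normalization, without the trend and with a library left out, other than without ctrl 1 or ctrl 2 with the filter applied again (0.00258 and 0.00391). The count tests planned on recovered reads were not run. Most low members rest on fewer than 10 reads a library, where counting error alone spans several-fold.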
